A study of Rattus norvegicus with 25 samples.

Results

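The genes described here encode the acid secretion and matrix-degrading machinery of osteoclasts, the multinucleated cells that resorb bone and tooth root. The set was a fixed list of 8 gene symbols, namely Acp5, Ctsk, Tcirg1, Atp6v0d2, Clcn7, Ostm1, Car2 and Itgb3. All 8 were found among the 16881 distinct symbols of the count files, with 1 entry each. The list names symbols and sets no threshold on a measured value.

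The animals were Sprague–Dawley rats whose maxillary first molar had been pulled, kept dry outside the mouth and replanted. Delayed replantation (DR) followed 60 min of drying and immediate replantation (IR) followed 5 min. Tooth with its periodontal ligament, the fibrous tissue that anchors the root, was collected 7 or 3 days later, with 6 libraries in each of the groups DR day 7, IR day 7, DR day 3 and IR day 3. A single library, NT, is labelled control for both treatment and time. NT and all 24 replanted libraries are annotated as postnatal day 21. Which step of the experiment this refers to is not stated, so NT may not match the others in age. The labels name no transgene or allele, and do not say whether libraries of a group came from separate animals, so p-values measure only the spread between these libraries.

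An osteoclast seals off a patch of mineral and acidifies the space beneath its ruffled border. Carbonic anhydrase II, made from Car2, supplies the protons. The vacuolar proton pump (V-ATPase) moves them across the ruffled border through a membrane sector that contains the products of Tcirg1 and Atp6v0d2. The chloride-proton exchanger Clcn7, with its partner subunit Ostm1, carries the balancing charge. Cathepsin K, from Ctsk, then cuts type I collagen, and tartrate-resistant acid phosphatase, from Acp5, is the classical histochemical marker of the cell. Itgb3 encodes the beta 3 chain of the integrin by which the cell holds on to the matrix.

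The depth was 5.04 to 8.81 M counts in the replanted libraries and 8.55 M in NT. Levels below are CPM, the reads of a gene scaled to 1e+06 reads of the library after correction for its composition. Of the 8 genes, 6 passed the filter on low counts and were tested among 11492 genes, and Clcn7 and Itgb3 did not. At day 3 several libraries stood apart through transcripts of glands that are not part of a tooth. A list of lipid-secreting gland genes took 1.64% to 2.31% of the counts in DR day 3 replicates 1 to 3 and 2.70% in IR day 3 replicate 6. A list of nasal and salivary gland genes took 25.1% and 29.8% in IR day 3 replicates 3 and 4. Results that rest on day 3 are therefore also given without these 6 libraries. That leaves DR day 3 replicates 4 to 6 and IR day 3 replicates 1, 2 and 5. Nasal and salivary gland genes took 5.63% in DR day 3 replicate 4 and 6.11% in IR day 3 replicate 5, which were kept. The 6 left out had the lowest day 3 values of Acp5, Ctsk, Tcirg1 and Atp6v0d2. Leaving them out therefore raises the day 3 means of these genes and narrows their ranges by construction.

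Promoter sequences are shown for 4 of the genes because Acp5, Ctsk and Tcirg1 varied together from library to library whereas Ostm1 stayed in a narrow range. Each run holds 250 bases before and 50 bases after the RefSeq transcription start in the build GRCr8, written 5′ to 3′ on the gene's own strand. Capitals mark every match, on either strand, to TCATGTG or TCACGTG (E-box forms of the kind bound by MITF and TFE factors), TGANTCA (an AP-1 form), TGGAAA (an NFAT core) or GAGGAA (a PU.1 core). The region is chr8:28943880-28944179 on the minus strand for Acp5 (start 1), chr2:185747298-185747597 on the plus strand for Ctsk, chr1:210567886-210568185 on the minus strand for Tcirg1 and chr20:47735072-47735371 on the plus strand for Ostm1.
Acp5 start 1: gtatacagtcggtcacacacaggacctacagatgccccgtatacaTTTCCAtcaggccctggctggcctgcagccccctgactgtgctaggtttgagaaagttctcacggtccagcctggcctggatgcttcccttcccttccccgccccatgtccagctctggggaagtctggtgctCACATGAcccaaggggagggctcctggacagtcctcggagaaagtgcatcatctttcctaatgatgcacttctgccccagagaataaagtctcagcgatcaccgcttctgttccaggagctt
Ctsk: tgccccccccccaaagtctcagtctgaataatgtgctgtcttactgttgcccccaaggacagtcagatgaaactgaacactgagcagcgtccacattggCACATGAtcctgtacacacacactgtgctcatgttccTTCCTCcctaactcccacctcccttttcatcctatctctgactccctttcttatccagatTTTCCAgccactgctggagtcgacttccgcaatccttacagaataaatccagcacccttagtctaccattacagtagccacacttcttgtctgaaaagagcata
Tcirg1: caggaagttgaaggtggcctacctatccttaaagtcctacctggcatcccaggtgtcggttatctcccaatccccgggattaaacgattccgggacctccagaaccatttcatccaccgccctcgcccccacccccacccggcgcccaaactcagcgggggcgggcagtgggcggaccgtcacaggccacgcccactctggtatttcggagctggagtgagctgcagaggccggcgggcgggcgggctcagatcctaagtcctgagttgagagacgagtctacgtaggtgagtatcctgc
Ostm1: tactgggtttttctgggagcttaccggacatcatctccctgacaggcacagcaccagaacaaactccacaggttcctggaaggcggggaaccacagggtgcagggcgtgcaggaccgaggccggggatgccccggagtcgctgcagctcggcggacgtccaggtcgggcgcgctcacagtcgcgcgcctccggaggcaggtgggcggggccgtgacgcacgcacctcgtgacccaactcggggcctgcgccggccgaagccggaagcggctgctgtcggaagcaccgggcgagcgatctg

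The Acp5 promoter at this start held a match to TCATGTG at position -72 from the start and a match to TGGAAA at -205. The Ctsk promoter held a TCATGTG match at -151, a GAGGAA match at -114 and a TGGAAA match at -54. The Tcirg1 and Ostm1 windows held none of these letters. For Clcn7 (chr10:14656011-14656310, plus strand; not printed), a TCACGTG match lay at -35 and a TCATGTG match at -13. A second listed Acp5 start, at chr8:28945881-28946180 on the minus strand, held no match. Of 33469 RefSeq promoter windows of the same 300 bases, TCATGTG matched 3.56%, TCACGTG 3.20%, TGANTCA 7.33%, TGGAAA 22.72% and GAGGAA 27.6%. The matches are letters in a window and not measured binding sites. The counts carry no promoter coordinates, so which Acp5 start the tissue used is unknown. The table of promoters gave an entry for 5 of the 8 genes, and Atp6v0d2, Car2 and Itgb3 are named only.

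Acp5 and Ctsk, the secreted phosphatase and the collagenase, were high in every library of day 7 and ran from very low to very high at day 3. Acp5 had 962, 1288 and 1529 CPM (lowest, median, highest) in DR day 7, 1078, 1749 and 2567 CPM in IR day 7, 19.7, 372 and 1876 CPM in DR day 3 and 10.1, 209 and 2603 CPM in IR day 3, and 708 CPM in NT. The day 7 groups overlapped each other and lay wholly above NT, and the NT value fell inside both day 3 ranges. Ctsk had 1270.3, 2296 and 2653 CPM in DR day 7, 1374, 2780 and 5077 CPM in IR day 7, 24.5, 799 and 3612 CPM in DR day 3 and 10.1, 419.7 and 3399.6 CPM in IR day 3, and 906 CPM in NT. Again each replanted pair of groups overlapped.

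The day 3 range was shared between both drying times. In DR day 3, Acp5 stood at 55.2, 112 and 19.7 CPM in replicates 1 to 3, and at 1876, 633 and 1139.9 CPM in replicates 4 to 6. In IR day 3, it stood at 939.6 and 2603 CPM in replicates 1 and 2, and at 187, 107, 232 and 10.1 CPM in replicates 3 to 6. Thus 7 of the 12 day 3 libraries lay at or below 232 CPM and the other 5 at or above 633 CPM, while each of the 12 day 7 libraries had 962 CPM or more. The 7 low libraries include the 6 with high gland shares, and the other is IR day 3 replicate 5, in which nasal and salivary gland genes took 6.11% of counts. Nasal and salivary gland genes were not low in every library with much Acp5, taking 7.10% in DR day 7 replicate 6 (Acp5 1044 CPM), 9.50% in IR day 7 replicate 6 (1078 CPM) and 5.63% in DR day 3 replicate 4 (1876 CPM). Of these, IR day 7 replicate 6 had the lowest Acp5 of its group. In DR day 7 only replicate 4, with 4.21% and 962 CPM, had less Acp5 than replicate 6. DR day 3 replicate 4 had the highest Acp5 of its group. Whether gland tissue has a part in the low values was not tested. Ribosomal RNA took its largest day 3 shares in DR day 3 replicate 6 (34.1%), IR day 3 replicate 2 (31.5%) and DR day 3 replicate 4 (27.7%), which had the most Acp5 at day 3. In IR day 3 replicate 1, with 939.6 CPM of Acp5, it took 17.0%. The part of this share in the Acp5 levels was not tested.

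Tcirg1 and Atp6v0d2, the membrane-sector subunits by which the osteoclast proton pump differs from that of most cells, followed the same division. Tcirg1 had 38.8, 63.2 and 78.3 CPM in DR day 7, 28.4, 63.6 and 124 CPM in IR day 7, 4.84, 20.9 and 113 CPM in DR day 3 and 5.63, 14.2 and 143 CPM in IR day 3, and 23.1 CPM in NT. Atp6v0d2 had 59.1, 110.3 and 153 CPM in DR day 7, 77.0, 125 and 272 CPM in IR day 7, 0.340, 34.2 and 304 CPM in DR day 3 and 0.603, 18.9 and 341 CPM in IR day 3, and 42.2 CPM in NT. Its lowest values stand for 2 counts in DR day 3 replicate 3 and 3 counts in IR day 3 replicate 6, which are at or below the limit of 3 counts that a library can resolve. By median, Acp5, Ctsk, Tcirg1 and Atp6v0d2 had the same order, with IR day 7 highest, then DR day 7, NT, DR day 3 and IR day 3. The neighbours in that order did not separate beyond their libraries' spread, except that both day 7 groups lay wholly above NT.

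**Figure D1:**
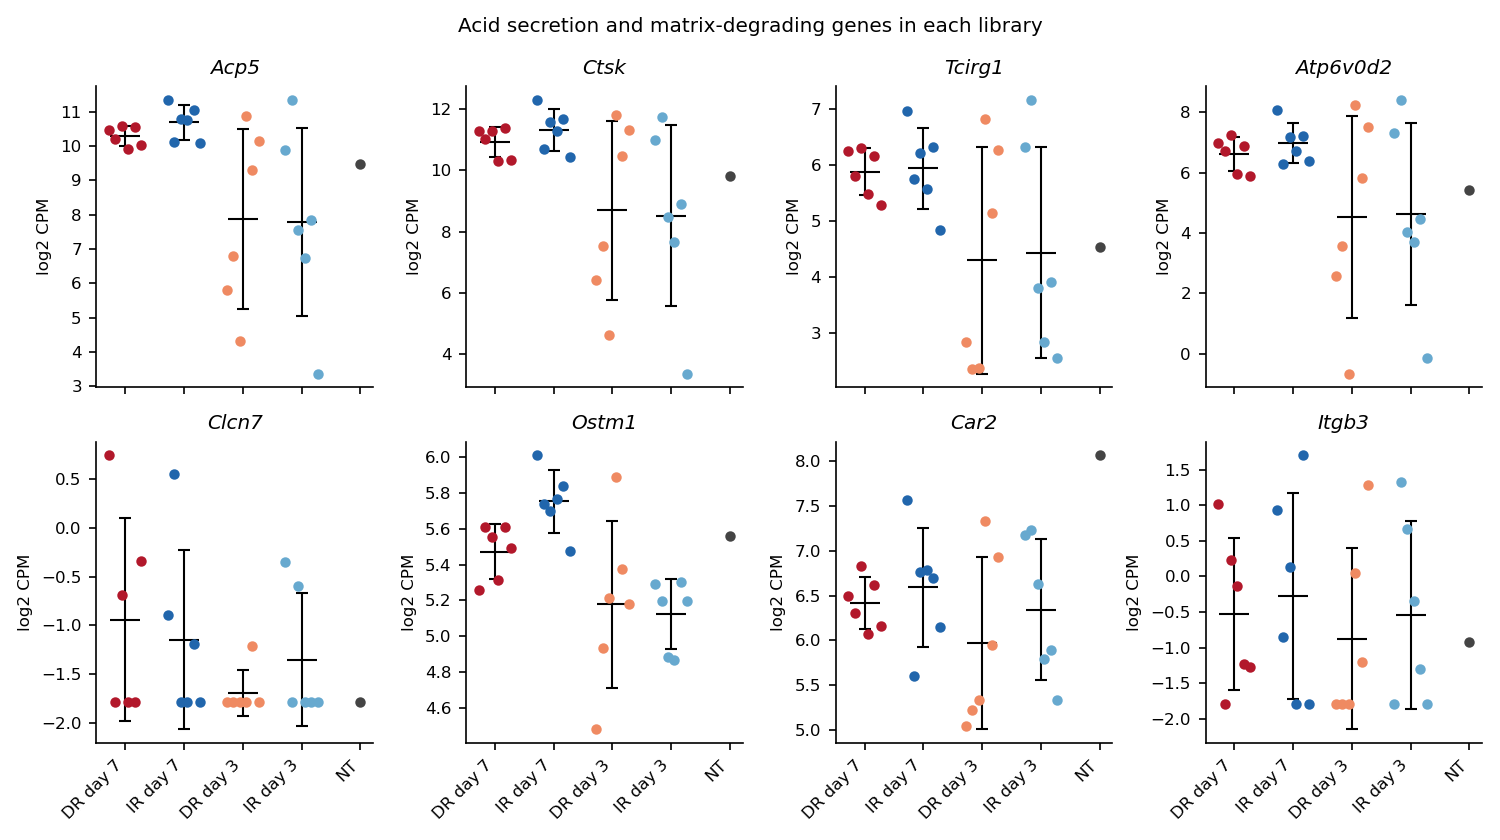
Each point is the log2 CPM (prior count of 2) of a gene in 1 library, by group, on vertical ranges that differ between genes; horizontal marks and whiskers are the mean and SD of 6 libraries, and NT has 1 library. Acp5, Ctsk, Tcirg1 and Atp6v0d2 are tight at day 7 and widely spread at day 3 in both DR and IR, Ostm1 spans less than 2 log2 units throughout, and Car2 is highest in NT.

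Ostm1, the partner of the chloride exchanger, stayed within a narrow range. It had 38.0, 45.7 and 48.5 CPM in DR day 7, 44.2, 53.6 and 64.2 CPM in IR day 7, 22.0, 36.4 and 59.0 CPM in DR day 3 and 28.9, 36.4 and 39.1 CPM in IR day 3, and 47.0 CPM in NT. IR day 7 lay wholly above IR day 3, the only separation of groups among the 6 tested genes in the 4 comparisons of replanted groups, whereas the DR groups overlapped. Between the highest and the lowest library of day 3 Ostm1 differed 2.68-fold, against 259-fold for Acp5, 359-fold for Ctsk and 29.6-fold for Tcirg1.

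Car2, the proton-supplying anhydrase, was intermediate. It had 67.1, 84.3 and 113 CPM in DR day 7, 48.3, 106 and 189 CPM in IR day 7, 32.8, 50.9 and 161 CPM in DR day 3 and 40.2, 78.9 and 149 CPM in IR day 3, and 267 CPM in NT. All replanted groups overlapped one another and all 24 replanted libraries lay below NT.

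Clcn7 and Itgb3 were at the edge of detection. Clcn7 had 34 counts over all libraries, with a count in 9 of 25 and at most 9 in any. DR day 7 held 15 of them, IR day 7 held 12, DR day 3 held 1, IR day 3 held 6 and NT held none. Pooled over a group, that was 0.364 CPM in DR day 7 (exact Poisson 95% interval 0.204 to 0.600), 0.265 CPM in IR day 7 (0.137 to 0.464), 0.0244 CPM in DR day 3 (0.000617 to 0.136) and 0.162 CPM in IR day 3 (0.0595 to 0.353). In NT, a count of 0 allows up to 0.436 CPM by the same exact Poisson 95% interval. A limit of 3 counts stands at 0.355 CPM there. The value for Clcn7 thus could not show a difference from NT with so few counts.

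Itgb3 had 107 counts, in 17 of the 25 libraries and at most 20 in any. It reached 0.558 CPM in DR day 7 (0.354 to 0.837), 0.885 CPM in IR day 7 (0.632 to 1.21), 0.463 CPM in DR day 3 (0.279 to 0.723), 0.622 CPM in IR day 3 (0.394 to 0.933) and 0.237 CPM in NT (0.0287 to 0.855). These intervals cover counting error only, and they overlap. Itgb3 is also the integrin chain of platelets. The usual partner chain of Itgb3 in osteoclasts, Itgav, was not among the symbols counted.

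The first question of the design was whether 60 min of drying, compared with 5 min, changed the expression of the tissue. At day 7 all 6 tested genes had lower fitted values in DR than in IR, and none passed the test. The log2 fold change, DR minus IR, was -0.44 (SE 0.906) for Acp5, -0.46 (SE 0.943) for Ctsk, -0.16 (SE 0.766) for Tcirg1, -0.42 (SE 1.03) for Atp6v0d2, -0.28 (SE 0.171) for Ostm1 and -0.28 (SE 0.399) for Car2. The adjusted p of edgeR's quasi-likelihood test was 1 for each of them. The median of the 6 was -0.35, and that of all 11492 tested genes was 0.00 to 2 decimals. Without IR day 7 replicate 1 the median of the 6 was -0.16. Of all tested genes, 0% were called (206 at an unadjusted p under 0.05, among them none of the 6, and 3 genes by DESeq2, none of them among the 6).

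The 95% intervals of these drying effects at day 7 ran from -2.33 to 1.45 for Acp5 and from -2.43 to 1.51 for Ctsk, so a several-fold change either way was not resolved. They were narrower for Ostm1, from -0.64 to 0.07, and for Car2, from -1.11 to 0.55. At day 7, DR and IR libraries with the same number shared their deviations from the group means, with a correlation of at least 0.214 in each of the 6 pairs. The labels do not state such a pairing, and only 3 of the 6 correlated best with their own number. Within the 6 same-numbered pairs DR was lower than IR in 5 of 6 for Acp5, Ctsk and Ostm1, in 4 of 6 for Atp6v0d2 and in 3 of 6 for Tcirg1 and Car2. The mean difference in log2 CPM, DR minus IR, was -0.40 ± 0.401 for Acp5, -0.39 ± 0.520 for Ctsk and -0.28 ± 0.277 for Ostm1 (SD, n = 6 pairs). With the pair as a block, none passed edgeR's test either (smallest adjusted p 0.680). Pair 1 gave the most negative difference for all 6 genes, IR day 7 replicate 1 having the highest level of each in its group.

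Lists of other cells lay on both sides at day 7. Fitted values were lower in DR than in IR for all 10 tested macrophage genes (median log2 fold change -0.34), 8 of 9 fibroblast and ligament genes (median -0.29), 14 of 15 other V-ATPase subunits (median -0.16), 9 of 12 nasal gland genes (median -1.80) and 11 of 12 skeletal muscle genes (median -2.83). They were higher in DR for 5 of 6 lipid gland genes (median 2.98) and 4 of 7 erythroid genes (median 0.05), and no gene of these lists was called. The part of the macrophage, fibroblast, V-ATPase and erythroid lists in the drying values of the 6 genes was not tested. With the mean log2 CPM of the lipid gland, nasal gland and skeletal muscle lists as 3 covariates, 4 of the 6 drying values at day 7 turned positive, to 0.31 for Acp5, 0.30 for Ctsk, 0.39 for Tcirg1 and 0.33 for Atp6v0d2, and none was called.

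At day 3 the 6 genes lay on both sides of 0. The log2 fold change, DR minus IR, was -0.089 (SE 0.904) for Acp5, 0.28 (SE 0.942) for Ctsk, -0.13 (SE 0.769) for Tcirg1, 0.028 (SE 1.03) for Atp6v0d2, 0.11 (SE 0.171) for Ostm1 and -0.27 (SE 0.399) for Car2. The adjusted p of edgeR ranged from 0.983 to 0.998. Again 0% of all tested genes were called (313 at an unadjusted p under 0.05, among them none of the 6). The median of the 6 was -0.030, against -0.039 over all tested genes. Its sign depended on single libraries, and it was -0.71 without DR day 3 replicate 4 and 0.91 without IR day 3 replicate 2. With the 3 tissue covariates all 6 values were positive, with a median of 1.95, the highest being 2.47 for Ctsk and 2.66 for Atp6v0d2, and none was called (smallest adjusted p 0.281, edgeR). Without the 6 libraries of high gland share it was 0.026, and edgeR called none of the 6. The difference between the drying effects of the 2 days was negative for all 6, with a median of -0.37 against 0.04 over all tested genes, and none was called, at an adjusted p of 1 (edgeR; 0% of all genes called, 346 at an unadjusted p under 0.05). The median was 0.35 without DR day 3 replicate 4, -1.22 without IR day 3 replicate 2 and -1.59 with the 3 tissue covariates. The 95% interval of this difference was -0.90 to 0.11 for Ostm1 and -3.02 to 2.31 for Acp5.

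The second question was how the tissue at day 7 differed from that at day 3. All 6 tested genes had higher fitted values at day 7 than at day 3 in both arms, and none passed the test. In DR the log2 fold change, day 7 minus day 3, was 0.99 (SE 0.913) for Acp5, 0.64 (SE 0.945) for Ctsk, 0.59 (SE 0.770) for Tcirg1, 0.15 (SE 1.03) for Atp6v0d2, 0.24 (SE 0.171) for Ostm1 and 0.19 (SE 0.399) for Car2. The adjusted p of edgeR ranged from 0.416 to 0.950, and none of the 6 had an unadjusted p under 0.05. The median of the 6 was 0.42, against 0.00 over all tested genes, of which 0.0087% were called. The 6 values of an arm are not independent of each other, since the genes varied together across libraries.

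In IR the log2 fold change, day 7 minus day 3, was 1.35 (SE 0.920) for Acp5, 1.39 (SE 0.958) for Ctsk, 0.62 (SE 0.770) for Tcirg1, 0.60 (SE 1.04) for Atp6v0d2, 0.63 (SE 0.171) for Ostm1 and 0.20 (SE 0.398) for Car2. The smallest adjusted p was that of Ostm1, 0.101 (edgeR; unadjusted p = 0.00123), and the others ran up to 0.786, with no other unadjusted p under 0.05. The median of the 6 was 0.62, against -0.09 over all tested genes, of which 0.139% were called.

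Ostm1 was the 1 gene of the 6 whose IR groups did not overlap, which 0.583% of all tested genes did in that direction. Its call depended on the method. It was not made by edgeR, whereas DESeq2 gave an adjusted p of 0.0142 (6.51% of all tested genes called) and limma-voom with sample quality weights gave 0.000370. Over the listed alternatives the log2 fold change stayed between 0.51 and 0.78 and the adjusted p between 0.000370 and 0.406, and without IR day 3 replicate 1 the adjusted p of edgeR was 0.0477. Ostm1 overlaps another annotated gene, LOC134483933, in the GRCr8 table, and Ctsk overlaps the pseudogene Eef1e1-ps1, so reads of these pairs may have been divided or shared in counting.

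These time comparisons turned on the scale on which the day 3 libraries were averaged. The fit compares mean counts, to which the few high day 3 libraries contribute most. On the log scale, which weights libraries equally, the difference of mean log2 CPM, day 7 minus day 3, was 2.41 in DR and 2.89 in IR for Acp5, and 2.24 in DR and 2.81 in IR for Ctsk. For Ostm1 it was 0.29 in DR and 0.63 in IR, close to the fitted values. Limma-voom with sample quality weights called 5 of the 6 genes higher at day 7 in each arm, all but Car2. In the same test 13.9% of all tested genes were called higher in DR and 20.1% in IR. Its weights in IR day 3 were 0.282 and 0.230 for replicates 1 and 2, which had much Acp5. Replicates 3 to 6 of IR day 3 had 2.99, 2.27, 1.34 and 0.147. In DR day 3 they were 1.08, 1.03 and 0.578 for replicates 1 to 3. Replicates 4 to 6, with more Acp5, had 0.378, 1.42 and 0.505. The part of the weights in these calls was not tested. Without the 6 day 3 libraries of high gland share, the median log2 fold change of the 6 genes was -0.28 in DR and 0.18 in IR, and edgeR called none. Those libraries had the lowest day 3 values of Acp5, Ctsk, Tcirg1 and Atp6v0d2, so leaving them out lowers the time values of these genes by construction. Leaving out a single library moved the median to 1.13 in DR without DR day 3 replicate 4 and to 1.60 in IR without IR day 3 replicate 2. With the 3 tissue covariates all 6 values of DR turned negative, with a median of -0.79, while the median of IR was 0.73. The macrophage list had a median log2 fold change, day 7 minus day 3, of 0.79 in DR and 1.32 in IR over its 10 tested genes, none of them called, and the fibroblast and ligament list had 0.83 in DR and 0.79 in IR. Their part in the time values was not tested.

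**Figure D2:**
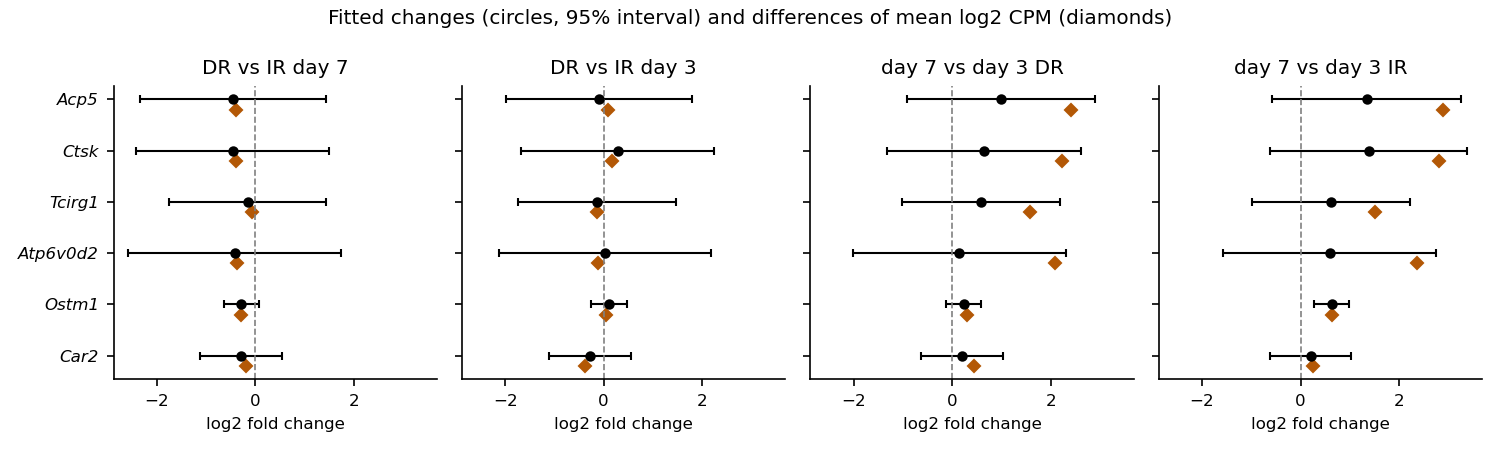
Circles with bars are edgeR's log2 fold change and its 95% interval for the 6 tested genes in each comparison, first-named group over second; diamonds are differences of mean log2 CPM. All bars but that of Ostm1 in day 7 against day 3 of IR cross 0, and for Acp5, Ctsk, Tcirg1 and Atp6v0d2 the diamonds of the time comparisons lie to the right of the circles.

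The spread itself differed between days. The SD of log2 CPM within groups, pooled over DR and IR, was 0.408 at day 7 and 2.68 at day 3 for Acp5, and 0.598 at day 7 and 2.94 at day 3 for Ctsk. For Tcirg1 it was 0.593 at day 7 and 1.95 at day 3, and for Atp6v0d2 0.621 at day 7 and 3.19 at day 3. It was larger at day 3 for all 6 tested genes, as it was for 83.7% of all tested genes. Only 0.774% of tested genes had a larger day 3 SD than Atp6v0d2, 1.09% than Ctsk, 1.59% than Acp5 and 6.41% than Tcirg1. By contrast 40.6% exceeded Car2 and 83.6% exceeded Ostm1, whose SD was 0.164 at day 7 and 0.358 at day 3. At day 7 these genes lay nearer the middle, with between 32.0% and 53.1% of tested genes more variable than Acp5, Ctsk, Tcirg1 or Atp6v0d2. In the 6 day 3 libraries left without those of high gland share, a subset examined after the data had been seen, the SD was 1.36 for Acp5 (13.1% of tested genes had a larger one), 1.14 for Ctsk (18.4%), 1.34 for Tcirg1 (13.4%) and 1.68 for Atp6v0d2 (7.81%).

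Levels of the 4 widely spread genes varied together. Among Acp5, Ctsk, Tcirg1 and Atp6v0d2, Pearson's r of log2 CPM was 0.80 to 0.96 and Spearman's rho 0.82 to 0.94 over the 12 libraries of day 7 (6 pairs of genes; largest adjusted permutation p 0.00362). Over the 12 libraries of day 3, r was 0.90 to 0.99 and rho 0.91 to 0.99 (largest adjusted permutation p 0.00033). Without the 2 libraries farthest from the median, r was still at least 0.69 at day 7 and 0.88 at day 3. Over the 6 day 3 libraries outside the gland-rich ones it was 0.975 to 0.996. Car2 followed them with r of 0.73 to 0.89 at day 7 and 0.85 to 0.93 at day 3 (largest adjusted permutation p 0.0175). For Ostm1, r with the other 5 was 0.50 to 0.74 at day 7 and 0.44 to 0.60 at day 3, and not every pair passed the threshold (largest adjusted permutation p 0.219). In all, 30 relations were tested, and libraries that differ in tissue content share that difference in every gene.

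The ratio of Ctsk to Acp5 counts shows how closely these genes kept together. Across the 24 replanted libraries it ran from 1 to 2.26, while Acp5 itself varied 259-fold and Ctsk 505-fold. The group medians of the ratio were 1.69 for DR day 7, 1.53 for IR day 7, 1.79 for DR day 3 and 1.89 for IR day 3, and the NT library had 1.28. It is a ratio of counts and not of protein or of transcripts per cell.

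**Figure D3:**
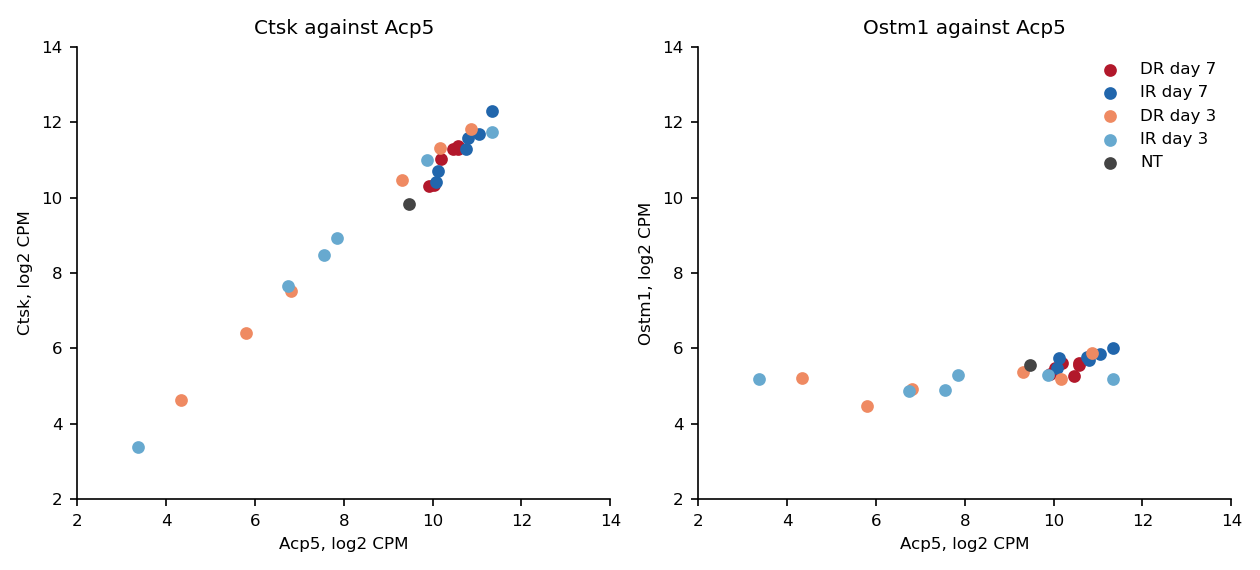
Each point is a library, with its log2 CPM of Acp5 on the horizontal axis and of Ctsk (left) or Ostm1 (right) on the vertical axis; colours mark the 5 groups, and both panels have the same axis ranges. The points of Ctsk follow a single line through all groups, while Ostm1 stays between 4 and 7 on the log2 scale over the whole range of Acp5.

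Gene lists differed widely in how far they varied between day 3 libraries. The other V-ATPase subunits, which all cells use in their lysosomes, summed to 2929 to 4178 CPM in DR day 7, 2854 to 5778 CPM in IR day 7, 2969 to 5032 CPM in DR day 3 and 2150.3 to 6058 CPM in IR day 3. They differed 2.82-fold between the highest and the lowest day 3 library, against 64.8-fold for the sum of the 8 genes. In the highest library of that sum, IR day 3 replicate 2, Acp5 and Ctsk gave 2603 and 3399.6 of the 6675 CPM. In the lowest, IR day 3 replicate 6, they gave 10.1 CPM each of 103 CPM. Taken singly at day 3, Ostm1 differed 2.68-fold, Car2 4.91-fold, Tcirg1 29.6-fold, Acp5 259-fold and Ctsk 359-fold. Partners of the ruffled border and of the actin ring differed 3.26-fold, and the lysosomal proteases of many cell types 3.36-fold. The osteoclast identity list other than the 8 genes differed 28.2-fold, and most of that lay in Mmp9, the gelatinase abundant in osteoclasts and in neutrophils. Mmp9 gave 709 of the 846 CPM of the highest day 3 library and 0 of the 29.97 CPM of the lowest. Without Mmp9, a sum taken after the data had been seen, the other 7 genes of the list differed 5.24-fold. Over all 12 day 3 libraries, lists of other cells also had wide ranges. They were 10.03-fold for macrophage, 22.4-fold for erythroid, 31.3-fold for megakaryocyte and platelet and 36.4-fold for fibroblast and ligament genes. Across these 12, a wide spread was thus not particular to osteoclast genes. The range was largest for the tissue lists, at 853-fold for the lipid gland, 732-fold for the nasal gland and 357-fold for skeletal muscle. In the 6 outside the gland-rich ones, the 8 genes summed to 851 to 6675 CPM and osteoclast identity genes, with Mmp9 included, to 103 to 846 CPM. Fibroblast and macrophage genes varied by a smaller factor there, at 17247 to 43110 CPM and 275 to 817 CPM. The lowest value of each of these lists was that of a single library, IR day 3 replicate 5. Erythroid genes had 529 to 3526 CPM there, and megakaryocyte and platelet genes 19.1 to 106 CPM.

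No gene of these lists was called in any comparison of replanted groups, of 15 tested V-ATPase subunits, 10 tested ruffled border partners, 8 lysosomal proteases and 6 tested osteoclast identity genes. Nearest to a call among them was Lgmn, the asparaginyl protease legumain, in day 7 against day 3 of IR, with a log2 fold change of 1.42 (SE 0.325, edgeR adjusted p 0.0651). In the same comparison Fermt3, the kindlin of blood cells that activates integrins, had 1.58 (SE 0.459, adjusted p 0.115). Ctss, the cathepsin of antigen-presenting cells, had 1.58 (SE 0.431, adjusted p 0.103). Across the 15 V-ATPase subunits the median log2 fold change, day 7 minus day 3, was -0.12 in DR and 0.07 in IR.

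The osteoclast label was checked on genes outside the 8. Mmp9 had 308, 438 and 574 CPM in DR day 7, 271, 673 and 1166 CPM in IR day 7, 3.40, 111 and 709 CPM in DR day 3 and 0, 50.5 and 632 CPM in IR day 3, and 204 CPM in NT. Nfatc1, the transcription factor of osteoclast formation, was detected in every library, with group medians of 30.4 CPM in DR day 7, 37.4 CPM in IR day 7, 25.4 CPM in DR day 3 and 23.6 CPM in IR day 3, against 38.2 CPM in NT. Tnfrsf11a, the receptor RANK, had group medians of 19.8 CPM for DR day 7, 24.5 CPM for IR day 7, 14.6 CPM for DR day 3 and 11.5 CPM for IR day 3, against 6.51 CPM for NT. Oscar had group medians of 10.3 CPM in DR day 7, 19.3 CPM in IR day 7, 1.13 CPM in DR day 3 and 3.10 CPM in IR day 3, against 4.61 CPM in NT. Those of Jdp2 were 16.6 CPM in DR day 7, 14.3 CPM in IR day 7, 7.00 CPM in DR day 3 and 7.23 CPM in IR day 3, against 3.19 CPM in NT. Calcr, the calcitonin receptor, stayed below 5 CPM in every library. Siglec15 (104 counts in all) and Tm4sf19 (15 counts) did not pass the filter. Dcstamp and Ocstamp, the fusion proteins, were in the list but not among the symbols counted, so nothing can be said of them.

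Markers of other cells moved with the 8 genes at day 3. The fibroblast and ligament list, all 9 of whose genes were tested, summed to 34368 to 56243 CPM in DR day 7, 41924 to 98899 CPM in IR day 7, 3949 to 34214 CPM in DR day 3 and 1184 to 43109.7 CPM in IR day 3, against 150092 CPM in NT. In day 3 libraries it was lowest in the same 7 libraries in which Acp5 was low. The macrophage list, of which 10 of 11 genes were tested, summed to 476 to 963 CPM in DR day 7, 438 to 1223 CPM in IR day 7, 127 to 817 CPM in DR day 3 and 81.5 to 785 CPM in IR day 3, against 425 CPM in NT, and it too was lowest in those 7. The part of either in the values of the 8 genes was not tested. In bulk tissue, fewer cells of a type and less RNA per cell cannot be told apart.

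**Figure D4:**
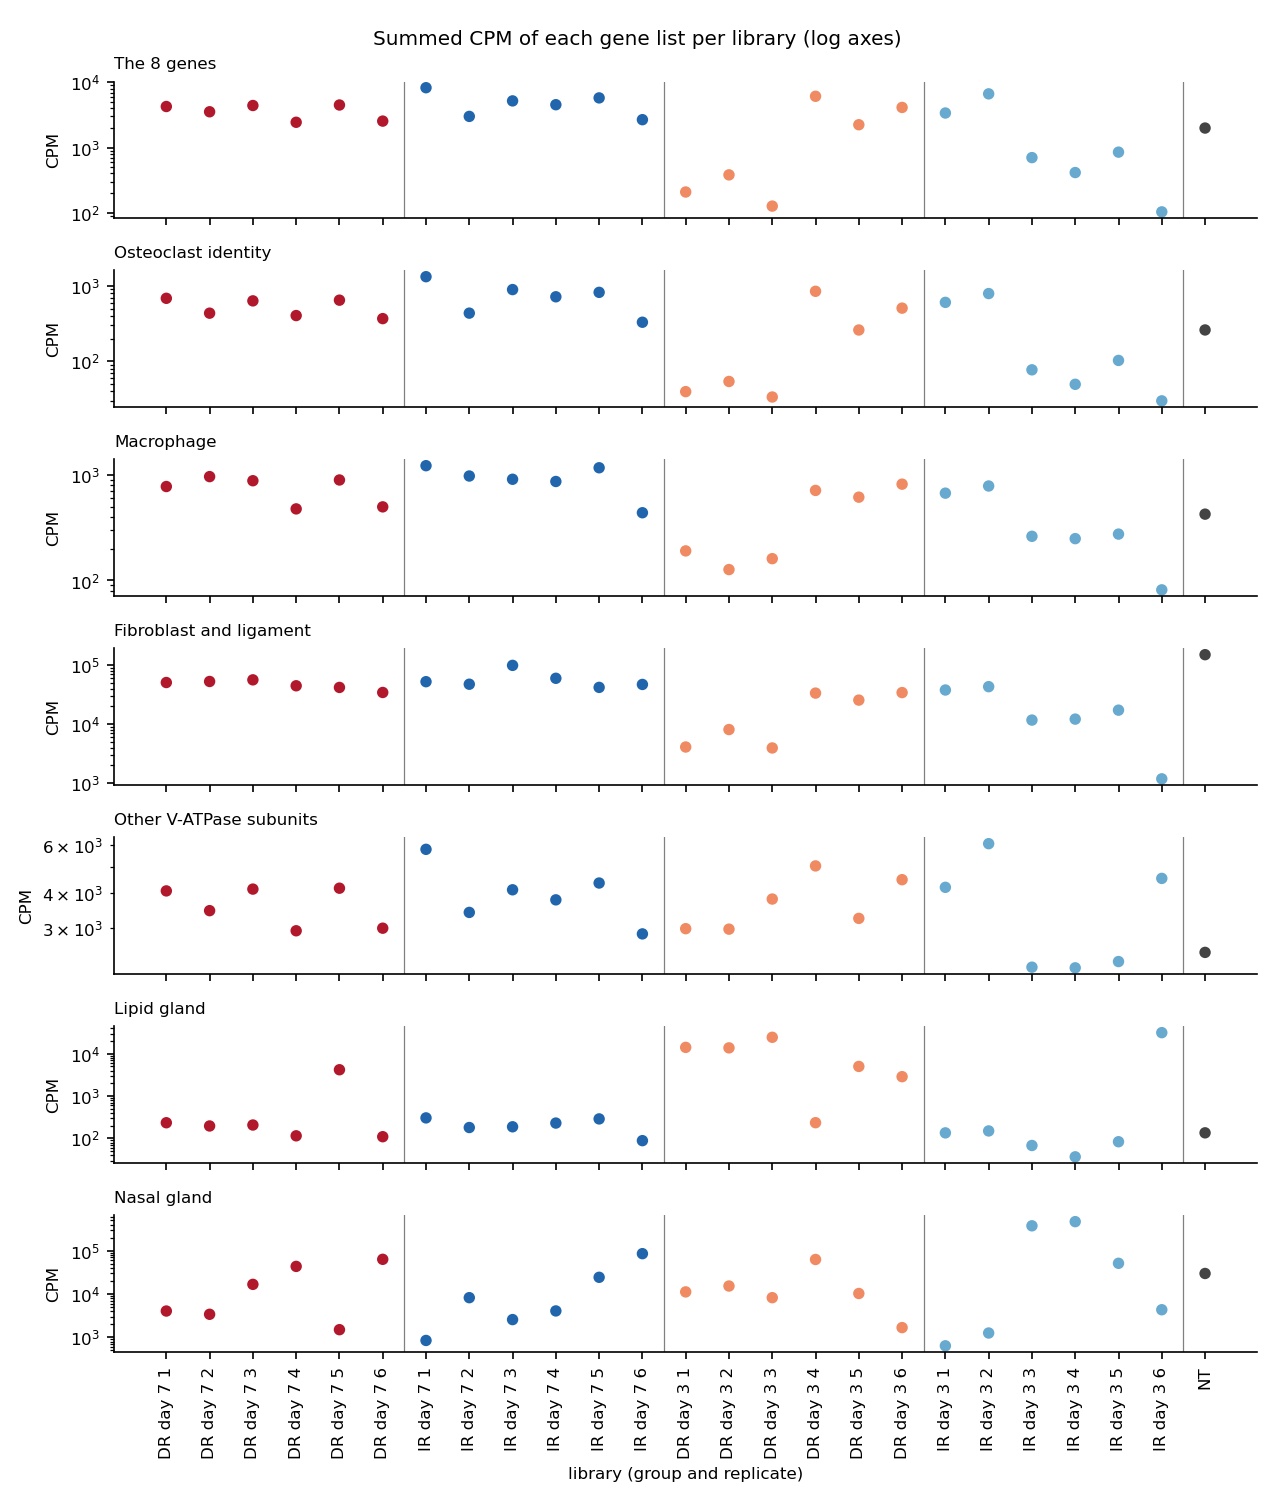
Summed CPM of the 8 genes and of 6 other gene lists in each of the 25 libraries, on log axes whose ranges differ between panels, ordered by group and replicate. The sum of the 8 genes is low in DR day 3 replicates 1 to 3 and IR day 3 replicates 3 to 6, together with the osteoclast identity, macrophage and fibroblast lists, and the other V-ATPase subunits do not fall below 2150.3 CPM.

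Genes outside the set with the most similar profile were sought among 7722 genes of sufficient level. Likeness was Pearson's r over the 24 replanted libraries between a gene's log2 CPM and the mean of the 6 tested genes after each had been centred and scaled. The closest 8 were Glb1 (lysosomal beta-galactosidase, r = 0.979), Myo1d (an unconventional myosin, 0.978), Tyrobp (the adaptor DAP12, 0.976), Csf1r (the receptor of macrophage colony-stimulating factor, 0.975), Cd68 (a lysosomal glycoprotein of macrophages and osteoclasts, 0.973), LOC100302372 (0.972), Arsb (the lysosomal arylsulfatase B, 0.971) and Cfl1 (the actin-severing cofilin, 0.970). Within day 7 their r was 0.735 for Cfl1 to 0.931 for Cd68, and within day 3 it was 0.962 for Arsb to 0.986 for Glb1. Of the osteoclast identity list, Mmp9 ranked 36, Nfatc1 404, Jdp2 550 and Tnfrsf11a 1144 on the same scale. Of the macrophage list, Csf1r and Cd68 were among the closest 8. Its other ranked genes were Cd14 at 496, Mrc1 at 525, C1qa at 632, C1qb at 756, C1qc at 954 and Adgre1 at 1117. Of the fibroblast and ligament list, Lum ranked 26 and Postn 56, and the lowest, Dcn, ranked 1592. These r describe libraries that share composition and depth and carry no test.

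The third comparison set the replanted groups against NT, which has 1 library and therefore no test. Each ratio is the log2 of the group's mean CPM over the NT value after 5 CPM had been added to both, and one of at least 1 or at most -1 is called past the fold. In DR day 7, Ctsk had a log2 ratio of 1.18, Tcirg1 1.23 and Atp6v0d2 1.20, all past the fold, and Acp5 had 0.84. In IR day 7, Acp5 had 1.28, Ctsk 1.64, Tcirg1 1.37 and Atp6v0d2 1.60. Among all tested genes, 6.47% were past the fold upwards in DR day 7 and 4.80% with IR day 7.

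For these 4 genes all 6 libraries of both day 7 groups lay above NT, which 21.3% of tested genes did in DR day 7 and 18.6% in IR day 7. At day 3 only Atp6v0d2 was past the fold upwards, at 1.06 in DR and 1.03 in IR, where 10.2% of tested genes were in either group, and its libraries lay on both sides of NT. Without the 6 libraries of high gland share, Ctsk, Tcirg1 and Atp6v0d2 were past the fold upwards in both day 3 groups, at 1.48, 1.51 and 1.98 in DR and 1.12, 1.59 and 1.92 in IR, as were 7.14% of all tested genes in DR day 3 and 6.65% in IR day 3. The libraries left out had the lowest day 3 values of these genes, so the rise of their ratios follows from the cut. Ostm1 stayed near NT, at a log2 ratio of -0.075 for DR day 7, 0.18 for IR day 7, -0.29 for DR day 3 and -0.38 for IR day 3.

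Car2 was the 1 tested gene of the 6 below NT in all 24 replanted libraries. Its log2 ratio to NT was -1.57 for DR day 7, -1.31 for IR day 7, -1.75 for DR day 3 and -1.50 for IR day 3, past the fold in each group. Downward ratios past the fold were found for 3.58% of tested genes when DR day 7 was compared, 2.82% with IR day 7, 6.20% with DR day 3 and 4.86% with IR day 3. NT was above all 24 replanted libraries for Car2, as for 9.10% of tested genes. Car2 is also the carbonic anhydrase of red cell precursors. The erythroid list was likewise highest in NT, at 7889.97 CPM, and summed to at most 3526 CPM in any replanted library. Among replanted libraries this list and Car2 did not always go together. IR day 7 replicate 1 had the most Car2 (189 CPM) and an erythroid sum of 171 CPM. IR day 3 replicate 5 had the sum of 3526 CPM and 59.3 CPM of Car2. In DR day 3 replicate 4, Car2 had 161 CPM and the sum was 1944 CPM. All 9 erythroid genes in the files had counts in NT. The megakaryocyte and platelet list reached at most 106 CPM in a replanted library and 357 CPM in NT. The part of these cells in the Car2 values was not tested, and NT differs from the replanted groups in having 1 library and possibly another age. NT also had less ribosomal RNA, at 2.93% of counts against 9.81% to 34.1% in the replanted libraries.

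**Figure D5:**
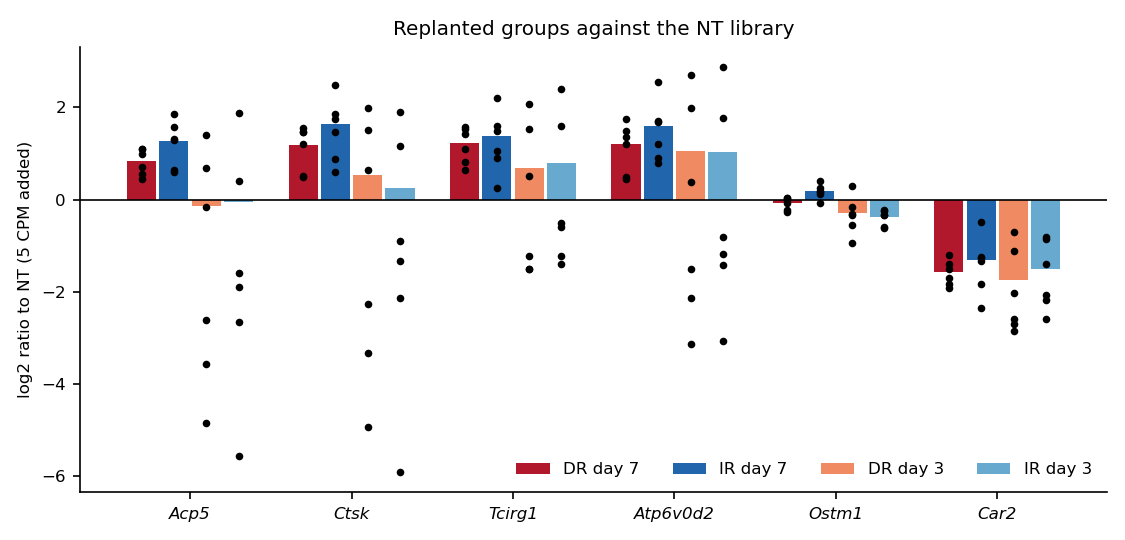
Bars are log2 ratios of the group's mean CPM to NT with 5 CPM added, and points are the single libraries on the same scale, for DR day 7, IR day 7, DR day 3 and IR day 3. At day 7 all points of Acp5, Ctsk, Tcirg1 and Atp6v0d2 lie above 0, at day 3 they lie on both sides, and all points of Car2 lie below 0.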

How the data were processed

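The deposited values were raw counts of reads for each gene symbol, without normalisation, in a separate file for every library. Per the labels' protocols, RNA was extracted with Trizol and 500 ng went into Lexogen QuantSeq libraries, which read transcripts near their 3′ end, so counts do not grow with transcript length. The submitters' processing notes name Bowtie2, edgeR and the builds mm10 and rn6. Their versions, the counting tool, the annotation and the strand setting were not given in the sources used here. Promoters come from RefSeq tables of GRCr8, a different build, and were joined by symbol.

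The 24 replanted libraries were fitted in R 4.3.3 with edgeR 4.0.16 (quasi-likelihood test, TMM scaling, filterByExpr by group with a minimum count of 10, robust fit, 4 group means, 20 residual degrees of freedom). P-values were adjusted over all 11492 tested genes by Benjamini-Hochberg, and a gene was called at an adjusted p under 0.05. Levels are CPM scaled by TMM over all 25 libraries, and log2 CPM uses a prior count of 2. The fit was tested on simulated counts. No replicate pair was alike within sampling noise (chi-square per gene of 23.3 or more in 60 pairs). Correlations used 100000 resamples.

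Alternatives were DESeq2 1.42.0, limma-voom (limma 3.58.1) with sample quality weights, RLE scaling, no filter, no ribosomal RNA rows, the groups compared alone, a replicate block, tissue covariates, summed repeated symbols and left-out libraries. The labels do not pair libraries. Replicate numbers were taken as pairs for the DR and IR libraries of day 7, a choice made from these data. There all 6 same-numbered pairs correlated over 0.1 in their deviations from the group means, and 3 of the 6 correlated best with their own number. No other groups had all 6 pairs over 0.1. The 8 genes and the other lists were chosen with earlier results of these data known. Named genes were the 8, the 8 closest in profile, and of each list the called genes or, with none called, those of smallest p. Intervals and the limit of 3 counts cover counting error only, because no molecular identifiers are described.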

Additional observations from a re-analysis of the deposited data

Results flagged for a closer look

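Clcn7 had 0.144 CPM in DR day 3 replicate 5 and 0 CPM in the other 5 libraries of that group, so this library stood apart from the rest. The value is 1 count and lies below the limit of 3 counts that a library can resolve. It was the only such value among 32 sets of 6 libraries examined for the 8 genes. The rule flags a gap to the nearest value above 0.625 of the range, and chance gives about 1 in 20 sets. That rate does not apply to this set. With 0 in the other 5 libraries, the gap equals the range, so the flag was certain.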

How the results depend on the processing

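None of the 8 genes was called by edgeR in any of the 5 comparisons, and that count held under RLE scaling, no filter, no ribosomal RNA rows, the compared groups alone, tissue covariates, summed symbols, and after the 6 gland-rich libraries of day 3 had been left out. DESeq2 called 1 (Ostm1) in day 7 against day 3 of IR, and limma-voom with sample quality weights called 5 there and 5 in DR; leaving out single libraries gave 0 to 1 in IR (1 without IR day 3 replicate 1). Over all genes, the calls numbered 1183, 0, 4374, 3291 and 522 with voom weights and 0, 3, 748, 1064 and 11 with DESeq2, against 0, 0, 16, 1 and 0 with edgeR (in the order day 3 drying, day 7 drying, IR time, DR time, interaction); leaving out single libraries gave up to 576 (without IR day 3 replicate 6), 0, 402 (without IR day 3 replicate 1), 1420 (without IR day 3 replicate 6) and 0. The 16 time calls in IR became 0 in its 12 libraries alone or with the block, and 1 without the 6 gland libraries, and the 1 call in DR became 43 in its 12 libraries alone. The cause of these changes was not tested.

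Signs turned as follows (log2 fold change). For drying at day 3, voom weights gave 0.15 for Acp5, 0.11 for Tcirg1 and -0.070 for Atp6v0d2, the replicate block gave -0.55 for Ctsk and -0.84 for Atp6v0d2, and 3 tissue covariates (lipid gland, nasal gland and muscle lists) gave 2.11 for Acp5, 1.78 for Tcirg1 and 0.64 for Car2. For drying at day 7, the covariates gave 0.31 for Acp5, 0.30 for Ctsk, 0.39 for Tcirg1 and 0.33 for Atp6v0d2. For time in IR, the covariates gave -0.037 for Car2, and leaving out the 6 gland libraries gave -0.19 for Tcirg1, -0.28 for Atp6v0d2 and -0.14 for Car2. For time in DR, the covariates gave -0.27 for Acp5, -0.73 for Ctsk, -0.85 for Tcirg1, -1.46 for Atp6v0d2, -0.058 for Ostm1 and -0.85 for Car2, and leaving out the 6 gave -0.28 for Ctsk, -0.28 for Tcirg1, -0.78 for Atp6v0d2, -0.0030 for Ostm1 and -0.38 for Car2. The Car2 interaction was 0.00504 with RLE, 0.00508 with DESeq2 and 0.29 with voom weights. With the replicate block the interaction was 0.053 for Acp5, 0.17 for Ctsk, 0.029 for Tcirg1, 0.42 for Atp6v0d2 and 0.22 for Car2; the block, supported by the pairing check at day 7 alone, changed no call of the 8 and gave a median time effect of 1.78 in DR and 2.04 in IR.

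Leaving out single libraries moved the drying effect at day 3 over -0.79 to 1.12 for Acp5, -0.33 to 1.09 for Ctsk, -0.78 to 0.73 for Tcirg1, -0.84 to 1.16 for Atp6v0d2 and -0.066 to 0.22 for Ostm1, the lowest values being those without DR day 3 replicate 4 and the highest, except for Ostm1, those without IR day 3 replicate 2. It moved the day 7 effect of Tcirg1 over -0.30 to 0.11 (IR day 7 replicate 1), time in IR for Car2 over -0.028 to 0.40, time in DR for Atp6v0d2 over -0.10 to 1.01, and the interaction over -1.56 to 0.35 for Acp5, -0.88 to 0.62 for Tcirg1, -1.58 to 0.42 for Atp6v0d2 and -0.21 to 0.36 for Car2. Against NT, where 2 genes were past the fold in DR day 3 and 2 in IR day 3, unscaled library totals gave 1 in DR, and leaving out the 6 libraries gave 4 in DR and 4 in IR. Day 7 counts against NT did not change. The few counts of Clcn7 and Itgb3 limit what can be said of them, and why they were so few was not tested.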
